A study of Mus musculus with 6 samples.

Results

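The genes described here encode the MHC class I heavy chains of the mouse 4T1 mammary tumour line, their light chain and their transcriptional activator. They were chosen by symbol, and all 10 (H2-K1, H2-D1, H2-Q4, H2-Q6, H2-Q7, H2-T22, H2-T23, H2-M3, B2m and Nlrc5) have a row among the 23644 genes listed. RNA sequencing was done on 3 libraries of Carmil3-KO 4T1 cells and 3 libraries of wild-type (WT) 4T1 cells, which served as the control. Carmil3 encodes an actin regulator of the CARMIL family, and the knockout cells were grown from clones that each began as 1 cell, while both groups were kept in the same serum-containing medium. The labels state neither the number of clones sequenced nor whether libraries came from separate cultures, so every p-value measures only the spread between these libraries, which may be technical. Traits of a clone and effects of the knockout cannot be told apart in this design.

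A class I molecule is a heavy chain paired with beta-2-microglobulin, and it carries a peptide cut in the cytosol and loaded in the endoplasmic reticulum. The classical heavy chains H2-K1 and H2-D1 show such peptides to CD8 T cells, whereas the non-classical chains are less variable and serve more specialised receptors on T cells and natural killer cells. Nlrc5 is the transactivator of class I genes, and interferons and NF-kB raise their transcription, so the class I level of a tumour cell bears on how it is seen by both kinds of lymphocyte. The 4T1 line comes from a BALB/c mouse, whose MHC haplotype is H-2d, whereas the reference genome is that of C57BL/6J, with haplotype H-2b. How far allelic differences lowered or shifted the level of any H2 gene was not tested.

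The H2 heavy chains are near copies of each other, which limits what a read can say about any one of them. Over the 28 pairs of the 8 H2 genes, the coding sequences of the GENCODE M21 annotation were 71.1% to 95.4% identical, the closest pair being H2-Q6 and H2-Q7. The first window of 90 coding bases without a difference in that pair (bases 605 to 694 of the H2-Q6 coding sequence, chromosome 17) is shown. It contrasts a pair that fell with a gene that rose. Later windows of this length were also identical in the pair, and the other genes were not compared there. Capitals mark the bases that differ from H2-Q6.
H2-Q6: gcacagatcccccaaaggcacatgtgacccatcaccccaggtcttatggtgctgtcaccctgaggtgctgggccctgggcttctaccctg
H2-Q7: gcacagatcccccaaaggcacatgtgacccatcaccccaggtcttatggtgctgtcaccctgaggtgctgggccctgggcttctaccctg
H2-D1: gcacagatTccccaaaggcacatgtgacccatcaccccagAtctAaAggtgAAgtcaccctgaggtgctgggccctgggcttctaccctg
H2-T23: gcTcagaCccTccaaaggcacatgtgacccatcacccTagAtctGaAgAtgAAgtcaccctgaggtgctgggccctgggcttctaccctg
Across these 90 bases H2-Q7 had 0 differences from H2-Q6, H2-D1 had 6 and H2-T23 had 10. The longest identical coding run of H2-Q6 and H2-Q7 was 265 bases, so a read that falls there cannot be given to either gene by its sequence. H2-T22, H2-T23 and H2-M3 stood farther off. Identity to the other 7 H2 genes was 71.1% to 76.1% for H2-T22, 72.9% to 83.7% for H2-T23 and 71.1% to 73.3% for H2-M3.

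Shared sequence was also counted over whole transcripts, as the percentage of all distinct stretches of a gene that occur in another gene too. At 50 bases it was 34.5% for H2-T22, 32.0% for H2-Q6, 26.4% for H2-Q7 and 21.8% for H2-Q4, against 13.6% for H2-T23, 12.8% for H2-D1 and 9.63% for H2-K1. At 100 bases it fell to 11.98% for H2-Q7, 10.8% for H2-Q6, 8.86% for H2-T22 and 3.15% for H2-T23. Most of the shared part of H2-T22 was shared with its neighbour H2-T10, an MHC class I gene with 1.59 ± 0.374 FPKM in Carmil3-KO and 1.75 ± 0.0778 FPKM in WT cells (SD, n = 3 each). H2-M3 shared 0.58% of its stretches at 50 bases, and B2m and Nlrc5 shared none at that length. No source used here gives the read length or the treatment of reads with several matches, so single values of the H2-Q and H2-T genes are uncertain to that extent.

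**Figure D1:**
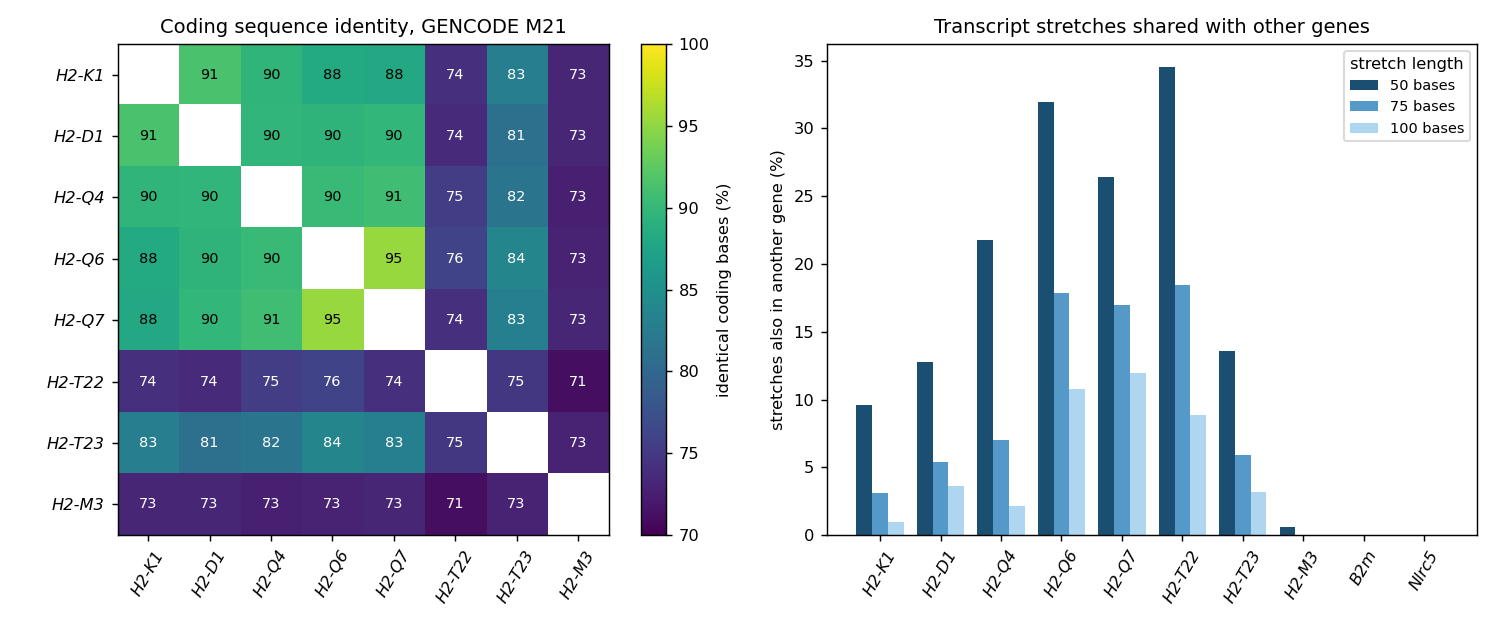
Sequence shared among the class I genes. The left panel gives the percentage of identical coding bases for each pair of the 8 H2 genes, and the right panel the percentage of each gene's transcript stretches of 50, 75 or 100 bases that another gene also holds. H2-Q6 and H2-Q7 form the closest pair (95.4%), and H2-M3, B2m and Nlrc5 are close to 0 in the right panel.

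The promoters of class I genes are known for an NF-kB element, an interferon-stimulated response element and a module bound by RFX, CREB or ATF and NF-Y factors, through which Nlrc5 acts. Promoters of 9 of the 10 genes were taken from RefSeq (GRCm38.p6). The 250 bases upstream of the start site are printed for the gene with the largest rise, the gene with the largest fall, a second riser and the light chain. They are H2-T23 (chr17:36032702-36032951, minus strand), H2-Q7 (chr17:35438905-35439154, plus strand), H2-T22 (chr17:36042743-36042992, minus strand) and B2m (chr2:122147437-122147686, plus strand). Capitals mark matches on either strand to CCAAT (the box bound by NF-Y), TGACG (a CREB or ATF half-site), TTTCNNTT (the core of an interferon response element) or the NF-kB consensus, with overlapping matches merged.
H2-T23: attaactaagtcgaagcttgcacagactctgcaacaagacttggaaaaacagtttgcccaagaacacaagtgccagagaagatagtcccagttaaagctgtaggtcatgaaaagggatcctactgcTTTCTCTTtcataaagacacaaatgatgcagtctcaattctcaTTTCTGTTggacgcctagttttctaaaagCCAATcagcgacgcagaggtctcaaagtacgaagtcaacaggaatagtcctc
H2-Q7: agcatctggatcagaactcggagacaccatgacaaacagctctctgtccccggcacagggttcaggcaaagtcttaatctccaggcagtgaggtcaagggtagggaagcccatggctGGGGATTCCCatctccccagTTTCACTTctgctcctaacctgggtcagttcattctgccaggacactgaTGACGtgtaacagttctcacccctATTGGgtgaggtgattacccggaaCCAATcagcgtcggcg
H2-T22: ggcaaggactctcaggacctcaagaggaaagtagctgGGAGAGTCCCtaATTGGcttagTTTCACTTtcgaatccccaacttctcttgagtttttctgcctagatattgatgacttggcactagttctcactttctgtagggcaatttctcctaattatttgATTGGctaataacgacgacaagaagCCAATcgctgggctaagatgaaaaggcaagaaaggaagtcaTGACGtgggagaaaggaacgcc
B2m: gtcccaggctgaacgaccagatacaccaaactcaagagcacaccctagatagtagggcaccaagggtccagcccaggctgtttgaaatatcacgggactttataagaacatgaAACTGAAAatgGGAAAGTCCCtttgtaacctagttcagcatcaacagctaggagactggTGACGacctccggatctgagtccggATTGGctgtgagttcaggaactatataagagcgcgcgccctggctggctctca

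Searched over the RefSeq windows, which go on for 50 bases past the start site, CCAAT was found in 9 of 9 class I promoters, against 37.4% of 32851 mouse promoters. TTTCNNTT was found in 9 of 9, against 23.9% of all promoters. TGACG was found in 7 of 9, all but H2-Q6 and H2-T23, against 20.8% of all promoters. The NF-kB consensus was found in 8 of 9, all but H2-T23, against 4.51% of all promoters. In H2-M3 a CCAAT match overlapped the NF-kB match. The motif letters were chosen with the changes known, after other forms had been run. These matches are in the C57BL/6J sequence and describe letters in a window, not binding. Of the 8 genes with an NF-kB match 1 was called higher and 4 were called lower, beside 16.9% and 18.7% of all genes tested. Only H2-T23 lacks the match, so these counts have no group to be set against. The form run first, GGGNNTCCC, gave another split. It was found in 4 of the 9 (H2-K1, H2-D1, H2-Q6 and H2-Q7) and in 5.66% of all promoters. These 4 genes had log2 changes of -0.69 to -0.31, whereas 4 of the 5 genes without it had positive changes. By calls, 0 of the 4 were higher and 3 lower, and of the 5 without it 2 were higher and 1 lower, beside the same 16.9% and 18.7%. The 4 genes are near copies, so they do not count as separate observations. H2-T23 has no match to either NF-kB form in this window. That window rests on the RefSeq start site, whereas the H2-T23 gene of GENCODE M21 reaches to base 36032855, inside it. Windows at other start sites of H2-T23 were not searched. The interferon form run first, TTTCNNTTC, did not divide the genes by direction. Its 6 genes had 2 positive and 4 negative changes, and the 3 genes without it had 2 positive and 1 negative. Whether any motif goes with the changes was not tested.

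**Figure D2:**
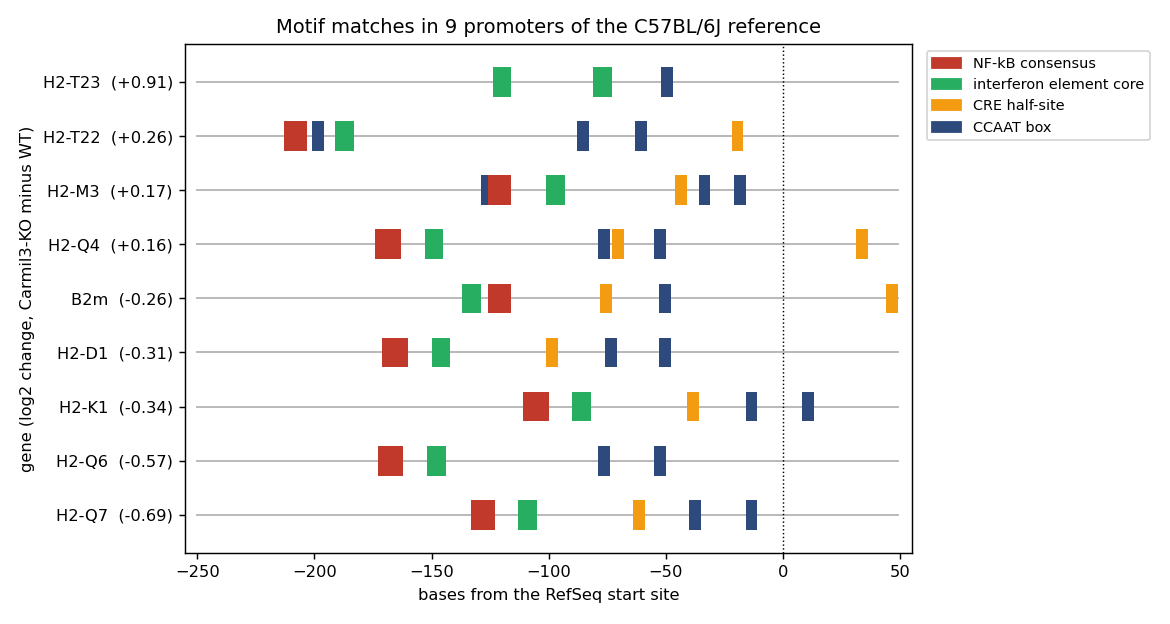
Motif matches in 9 class I promoters, as distance in bases from the RefSeq start site (x axis), with genes ordered by their log2 change between Carmil3-KO and WT cells. The coloured boxes are the matches. Every gene except H2-T23 has an NF-kB match, and all 9 have an interferon element core and a CCAAT box.

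Values are deposited FPKM, read counts scaled by exon length and by library size. The 6 libraries were scaled to totals of 17778427 to 19046060 reads, recovered from the spacing of the deposited values. Reads summed over genes came to 19328491 to 20705209, or 108.7% to 109.1% of these totals, and the cause of this excess was not tested. Carmil3 itself was near 0 in every library, at 0, 0.0118 and 0.0241 FPKM in Carmil3-KO and 0.036, 0.0246 and 0.0117 FPKM in WT cells (two-sided exact permutation p = 0.3, the smallest possible with 3 against 3 being 0.1), so its level does not check the labels. Of the mammary epithelial markers, all 7 were lower in Carmil3-KO cells. Epcam averaged 0.0875 FPKM in Carmil3-KO and 19.7 FPKM in WT cells, and Cdh1 (E-cadherin) averaged 0.773 and 12.4 FPKM in those groups, so the epithelial label holds less well for Carmil3-KO cells, which kept Krt8 at 217 FPKM against 470 FPKM in WT cells. Leukocyte markers, which matter here because leukocytes are rich in class I, summed to 2.62 to 3.34 FPKM in Carmil3-KO and 3.18 to 3.56 FPKM in WT libraries, and 6 of the 7 with a row stayed under 1 FPKM in every library, Ptprc among them. Carmil3-KO replicate 3 stood apart, with a chi-square per degree of freedom of at least 17.62 against the other Carmil3-KO libraries and at most 10.49 in any pair without it. A gene was called where the adjusted p of limma (Benjamini-Hochberg over 11171 genes tested, on log2(FPKM + 1)) was under 0.05, and log2 changes on this scale understate those of low genes.

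The class I genes were called in both directions. H2-T23 and H2-T22 were called higher in Carmil3-KO cells, H2-Q7, H2-Q6, H2-D1 and B2m were called lower, and H2-K1, H2-Q4, H2-M3 and Nlrc5 did not pass. All 10 genes passed the filter on low values. These 2 higher and 4 lower of 10 stand beside 16.9% of all genes tested that were called higher and 18.7% that were called lower. The median log2 change of the 10 genes was -0.22, beside -0.0066 for all genes tested. That median was -0.05 over the 8 genes left by a filter of 5 FPKM and -0.09 when each gene was centred on its neighbours. In 3 genes every Carmil3-KO library lay above every WT library, and in 4 every one lay below, where 24.2% and 26.4% of all genes tested did so. When the change had to exceed 1.5-fold, H2-T23 alone of the 10 was called (adjusted p = 0.0241), against 1.06% of all genes tested called higher and 1.73% called lower by that rule. In bulk RNA, fewer cells of a type and less RNA per cell cannot be told apart.

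**Figure D3:**
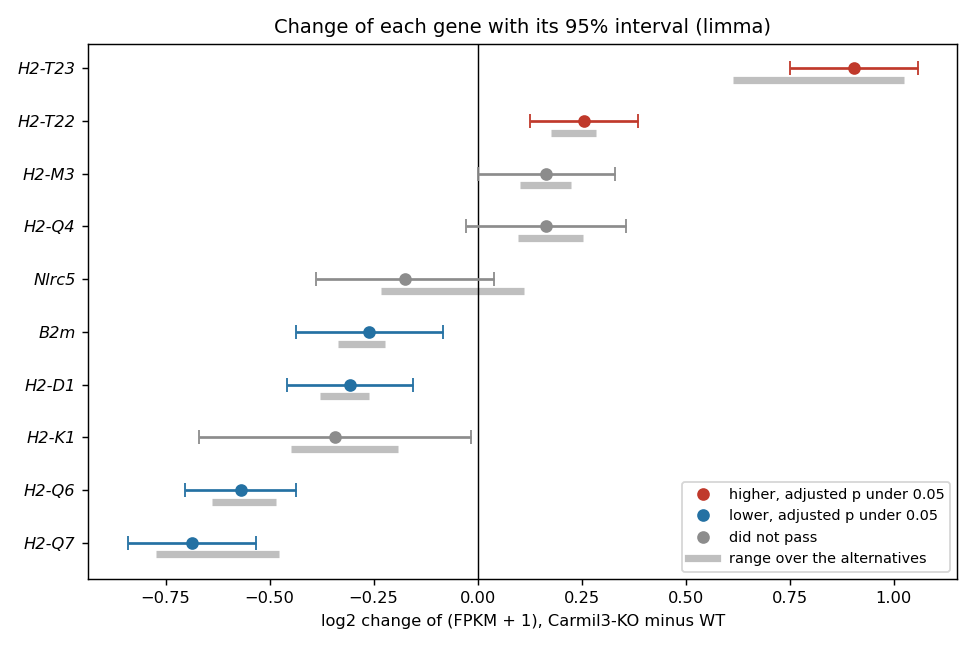
Log2 change of (FPKM + 1) between Carmil3-KO and WT cells for each class I gene (x axis), with the 95% interval of limma as thin bars and the range over the alternative settings as thick grey bars. Red genes were called higher and blue genes lower. H2-T23 stands at 0.91 and H2-Q7 at -0.69, and Nlrc5 alone has a grey bar that crosses 0.

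Nlrc5, the class I transactivator (chr8:94434356-94527272 in GRCm38, plus strand), was expressed at a low level in both groups. Carmil3-KO libraries had 4.09, 3.93 and 3.12 FPKM, and WT libraries had 3.98, 4.68 and 4.25 FPKM. The groups overlapped, and the lowest value belonged to Carmil3-KO replicate 3. The log2 change was -0.17 (95% interval -0.39 to 0.04, adjusted p = 0.182), and -0.08 without Carmil3-KO replicate 3 (adjusted p = 0.418). Its 20 nearest tested genes on each side had a median log2 change of -0.29, and relative to them the sign of the Nlrc5 change turned to 0.11 (adjusted p = 0.42).

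Of the classical heavy chains, H2-D1 (chr17:35262730-35267499, plus strand) had the highest measured level of the heavy chains in both groups and fell in Carmil3-KO cells. What H-2d sequence adds to or takes from this row of the H-2b reference was not tested. It had 109, 102 and 114 FPKM in Carmil3-KO libraries, against 134, 127 and 141 FPKM in WT libraries. Every Carmil3-KO library lay below every WT library. The log2 change was -0.31 ± 0.07 (SE, adjusted p = 0.00795), a ratio of mean FPKM of 0.807, and the call held without any 1 library (adjusted p up to 0.0391).

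H2-K1 (chr17:33996017-34000347, minus strand), the other classical chain, was measured at 4.41, 3.11 and 4.86 FPKM in Carmil3-KO libraries and at 4.77, 5.37 and 6.23 FPKM in WT libraries. The groups overlapped, the third Carmil3-KO library lying just above the lowest WT library. The log2 change of -0.34 ± 0.14 (SE) did not pass (adjusted p = 0.0947), although its 95% interval of -0.67 to -0.02 covers the value of H2-D1. Single libraries decided this value, as the log2 change was -0.45 without Carmil3-KO replicate 3 (adjusted p = 0.0468) and -0.19 without Carmil3-KO replicate 2 (adjusted p = 0.207). Per length, H2-K1 was measured at 3.79% ± 0.637 of H2-D1 in Carmil3-KO and 4.07% ± 0.449 in WT cells (SD, n = 3 each). The ranges overlapped, so this measured ratio did not differ between the groups beyond the spread. Its size is uncertain, since the effect of H-2d alleles on either level was not tested. The H2-K1 values also did not give whole reads at the length used.

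The H2-Q genes lie near H2-D1 on chromosome 17, and H2-Q6 and H2-Q7 belong to the group that encodes Qa-2, a class I molecule that can be anchored to the membrane by a lipid. Both fell in Carmil3-KO cells. H2-Q7 (chr17:35439155-35443773, plus strand) had 6.56, 6.28 and 5.74 FPKM in Carmil3-KO libraries, against 10.9, 9.92 and 10.9 FPKM in WT libraries. The groups were far apart relative to their spread, and the log2 change of -0.69 ± 0.07 (SE, adjusted p = 0.000116) was the largest fall among the class I genes. A change at least as large in either direction was seen in 5.09% of all genes tested.

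H2-Q6 (chr17:35424850-35430055, plus strand) had 17.3, 16.8 and 18.9 FPKM in Carmil3-KO libraries, against 25.8, 26.8 and 27.5 FPKM in WT libraries. Again no library of one group reached the other. The log2 change was -0.57 ± 0.06 (SE, adjusted p = 0.000158). Summed over H2-Q6 and H2-Q7, the level was 23.9 ± 0.731 FPKM in Carmil3-KO and 37.3 ± 0.942 FPKM in WT cells (SD, n = 3 each), a ratio of 0.640. Counted as reads over the library total, a sum that an exchange of reads within the pair leaves as it is, the ratio was 0.628. This sum does not cover exchange with genes outside the pair. At 50 bases H2-Q7 shared 14.03% of its stretches with H2-Q10 and 8.74% with H2-Q5, against 6.31% with H2-Q6. H2-Q6 shared 13.95% with H2-Q7 and 12.33% with H2-Q4.

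H2-Q4 (chr17:35379617-35385290, plus strand), a further gene of the Q region, did not follow that pair. It had 18.8, 15.9 and 20.03 FPKM in Carmil3-KO libraries and 15.2, 16.2 and 16.9 FPKM in WT libraries, and the groups overlapped through the second Carmil3-KO library. The log2 change of 0.16 (95% interval -0.03 to 0.36) did not pass (adjusted p = 0.162), and it was 0.25 without Carmil3-KO replicate 2 (adjusted p = 0.0344) and 0.10 without Carmil3-KO replicate 3 (adjusted p = 0.365). The order of levels within the Q region also differed. In Carmil3-KO cells H2-Q4 and H2-Q6 had overlapping ranges, at means of 18.3 and 17.7 FPKM, whereas in WT cells H2-Q6 at 26.7 FPKM lay above H2-Q4 at 16.1 FPKM in every library.

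The T-region genes H2-T23 and H2-T22 went the other way, whereas H2-T10 had a log2 change of -0.10 and did not pass (adjusted p = 0.525). H2-T23 (chr17:36029773-36032855, minus strand) encodes the heavy chain of Qa-1, which presents leader peptides of other class I chains to the CD94-NKG2A receptor of natural killer cells. It had 10.99, 9.84 and 10.9 FPKM in Carmil3-KO libraries, against 5.43, 4.85 and 5.29 FPKM in WT libraries, which correspond to 605, 526 and 573 reads against 285, 249 and 286 reads. Every Carmil3-KO library was well above every WT library. The ratio of means was 2.04 and the log2 change 0.91 ± 0.07 (SE, adjusted p = 2.25e-05), and a change at least as large was seen in 3.02% of all genes tested. The call held under every alternative run, with a log2 change of 0.61 to 1.03.

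H2-T22 (chr17:36037128-36042747, minus strand), the gene next to it, encodes a heavy chain that carries no peptide and is bound by some gamma-delta T cell receptors. It had 8.80, 8.37 and 8.93 FPKM in Carmil3-KO libraries, against 6.93, 7.40 and 7.06 FPKM in WT libraries. The groups did not overlap, and the log2 change was 0.26 ± 0.06 (SE, adjusted p = 0.00902). Without WT replicate 1 the adjusted p was 0.0511, just past the threshold. Of the class I genes H2-T22 shared the largest part of its 50-base stretches with another gene.

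H2-M3 (chr17:37270220-37274484, plus strand) presents peptides that begin with formylmethionine, as bacterial and mitochondrial peptides do. It had 10.0, 9.24 and 11.2 FPKM in Carmil3-KO libraries and 9.22, 8.80 and 8.73 FPKM in WT libraries. The groups were separated by a narrow gap, between the second Carmil3-KO library and the first WT library, and the log2 change of 0.17 (95% interval 0.00 to 0.33) did not pass (adjusted p = 0.105). Without Carmil3-KO replicate 3 it was 0.10 (adjusted p = 0.198).

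B2m (chr2:122147686-122153083, plus strand), the light chain of all these molecules and of several class I-like proteins, had the highest level of the 10 genes. It had 601, 602 and 703 FPKM in Carmil3-KO libraries, against 729, 779 and 769 FPKM in WT libraries. The groups did not overlap, but the third Carmil3-KO library lay close to the first WT library. The log2 change was -0.26 ± 0.08 (SE, adjusted p = 0.0303). Leaving out any 1 library other than Carmil3-KO replicate 3 ended this call, with adjusted p-values of 0.101 without Carmil3-KO replicate 1, 0.104 without Carmil3-KO replicate 2, and 0.071, 0.0836 and 0.0807 without WT replicates 1, 2 and 3. Without Carmil3-KO replicate 3 the adjusted p was 0.00175.

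**Figure D4:**
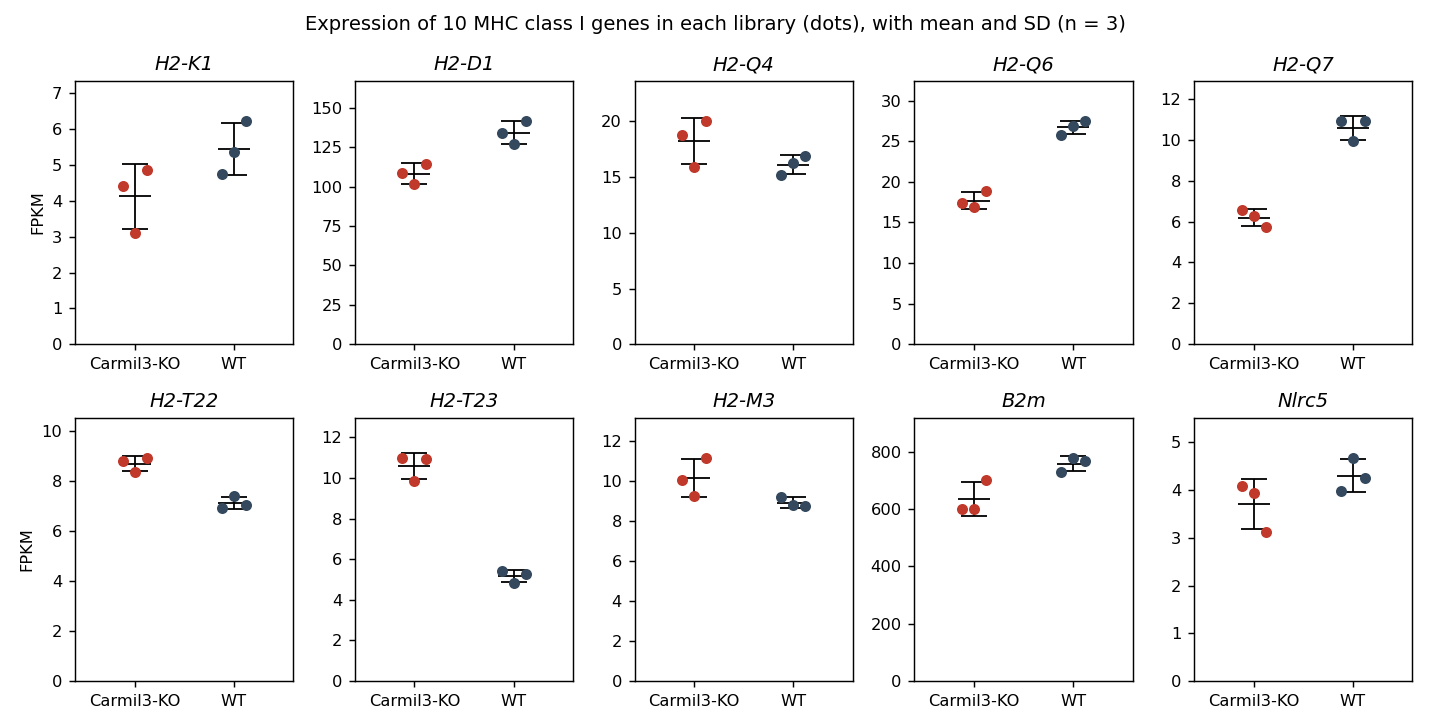
FPKM of the 10 class I genes in each library (dots), Carmil3-KO in red and WT in dark blue, with mean and SD (n = 3 per group). Each panel has its own y axis from 0. The dots of the groups are apart for H2-T23 and H2-T22 (higher in Carmil3-KO) and for H2-D1, H2-Q6 and H2-Q7 (lower), and by a narrow gap for H2-M3 and B2m.

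The heavy chains were also summed, since reads can be exchanged between near copies. Exchange with H2 genes outside the sum is not covered. The 8 H2 genes together had 186, 171 and 195 FPKM in Carmil3-KO libraries, against 212, 206 and 224 FPKM in WT libraries. The groups did not overlap, the Carmil3-KO mean being 0.859 of the WT mean, or 0.857 when summed as reads over the library total. This sum is mostly the H2-D1 row, which made up 58.9% ± 0.398 of it in Carmil3-KO and 62.6% ± 0.955 in WT cells (SD, n = 3 each). The classical chains summed to 112 FPKM in Carmil3-KO and 140 FPKM in WT cells, and the T- and M-region chains H2-T22, H2-T23 and H2-M3 to 29.4 and 21.2 FPKM in those groups. The total and its non-classical T and M part thus differed in opposite directions.

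The proportion of B2m to the heavy chains did not differ beyond the spread between libraries. The ratio of B2m to the summed heavy chains was 3.24, 3.52 and 3.61 in Carmil3-KO libraries and 3.43, 3.78 and 3.43 in WT libraries, with overlapping groups. For the gene with the largest rise and the gene with the largest fall, a pair picked for its changes and given as a description, the ratio of H2-T23 to H2-Q7 was 1.72 ± 0.173 in Carmil3-KO and 0.490 ± 0.006 in WT cells (SD, n = 3 each). In Carmil3-KO cells H2-T23 had the fifth highest level of the 10 genes, with a range that overlapped that of H2-M3. In WT cells it was next to last, with a range that overlapped that of H2-K1, and only Nlrc5 lay below.

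Genes that make and load class I peptides were called lower where they were called. Of 8 peptide-loading genes, 3 were called lower and 5 did not pass, beside 18.7% of all genes tested that were called lower. Calr (calreticulin, a chaperone of the loading complex) averaged 194 ± 6.38 FPKM in Carmil3-KO and 259 ± 8.57 FPKM in WT cells (adjusted p = 0.000812, 0.0567 once centred on its neighbours). Tap1, a subunit of the peptide transporter, averaged 2.32 ± 0.102 FPKM in Carmil3-KO and 3.08 ± 0.115 FPKM in WT cells (adjusted p = 0.00865). Erap1, which trims peptides, averaged 6.04 ± 0.298 FPKM in Carmil3-KO and 7.57 ± 0.496 FPKM in WT cells (adjusted p = 0.0115). The partner subunit Tap2 (log2 change -0.27, adjusted p = 0.0644) and the bridging chaperone Tapbp (-0.13, adjusted p = 0.122) did not pass, and both passed as lower without Carmil3-KO replicate 3, which brought the count of this list to 5. Both also passed when centred on their neighbours (0.0349 and 0.017), and Tap2 by limma-voom (0.0386). Among 5 immunoproteasome genes 2 were called lower, beside the same 18.7% of all genes tested. Psmb8 averaged 3.32 ± 0.229 FPKM in Carmil3-KO and 5.35 ± 0.137 FPKM in WT cells (adjusted p = 0.000323). Psmb10 (log2 change -0.26, adjusted p = 0.0428) lost its call without Carmil3-KO replicate 1 or 2 or WT replicate 1 or 3 (adjusted p of 0.0871, 0.129, 0.116 and 0.128). It also lost it when centred on its neighbours (0.687), without a filter on low values (0.117) and under empirical Bayes without trend (0.0588). Psmb9 had a log2 change of -0.10 (adjusted p = 0.419). Against a 1.5-fold change no peptide-loading or immunoproteasome gene was called.

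The receptors and kinases through which interferons signal, listed together with their inhibitor Socs1, were mostly higher, the opposite side from peptide loading. These 8 genes had a median log2 change of 0.32. Of them 6 were called higher and 2 did not pass, beside 16.9% of all genes tested that were called higher. The count was 4 without Carmil3-KO replicate 2 or without WT replicate 1. Jak2, a kinase of the interferon-gamma receptor and of many cytokine receptors, averaged 129 ± 1.87 FPKM in Carmil3-KO and 57.1 ± 2.91 FPKM in WT cells (adjusted p = 1.87e-06). Socs1, an inhibitor of these kinases that interferons induce, averaged 3.46 ± 0.267 FPKM in Carmil3-KO and 2.14 ± 0.419 FPKM in WT cells (adjusted p = 0.00534). The receptor chains Ifnar2 and Ifngr2 rose by log2 changes of 0.50 and 0.40 (adjusted p = 0.00052 and 0.000747). Ifngr1 (adjusted p = 0.0197) and Ifnar1 (0.0372) lost their calls without WT replicate 1, at 0.0924 and 0.117, and Ifngr1 also without Carmil3-KO replicate 2, at 0.0736, while Ifnar1 kept its call only when Carmil3-KO replicate 3 was the library left out. Ifnar1 also lost its call without a filter on low values (0.0944) and under empirical Bayes without trend (0.0502). When the change had to exceed 1.5-fold, Jak2 alone of the 8 was called (adjusted p = 0.000195). By that rule 1.06% of all genes tested were called higher.

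Of the transcription factors of class I promoters, 14 of 16 were tested, 3 were called higher and 11 did not pass. These were Nfkb1, a subunit of NF-kB (log2 change 0.23, adjusted p = 0.0112), Nfyb, a subunit of the CCAAT-binding factor (0.21, adjusted p = 0.0181), and Irf1, an interferon-induced activator of class I genes (0.20, adjusted p = 0.0195). Without WT replicate 1 all 3 lost their calls (adjusted p of 0.062, 0.0657 and 0.0626). Other settings ended them too. Nfkb1 lost its call when centred on its neighbours (0.223), Nfyb without Carmil3-KO replicate 1 (0.051) or WT replicate 3 (0.053), and Irf1 without Carmil3-KO replicate 2 (0.0579) or WT replicate 3 (0.0607). Irf1 averaged 11.6 ± 0.300 FPKM in Carmil3-KO and 9.93 ± 0.282 FPKM in WT cells. Rfx5, a subunit of the RFX complex, did not pass (log2 change 0.20, adjusted p = 0.0651). Ciita, the class II counterpart of Nlrc5, averaged 0.0103 and 0.0140 FPKM in those groups. Over these 4 lists together, 9 of 35 tested genes were called higher and 5 lower, with a median log2 change of 0.01, beside the 16.9% and 18.7% of all genes tested.

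**Figure D5:**
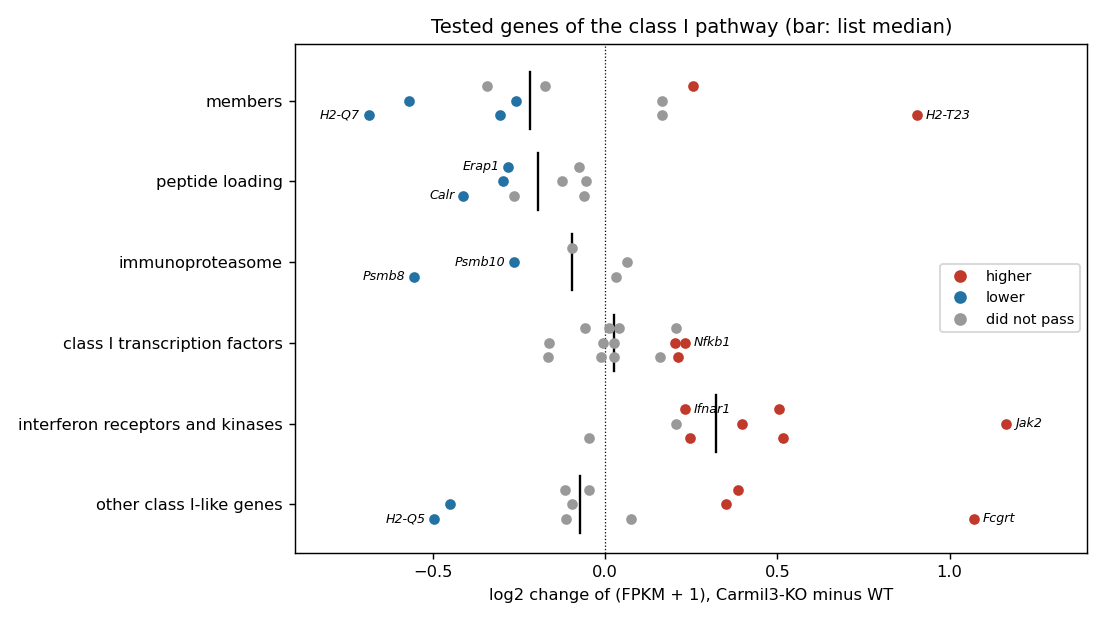
Log2 change of (FPKM + 1) between Carmil3-KO and WT cells (x axis) for the tested genes of 6 groups, the 10 class I genes being the top row. Each dot is a gene, coloured by its call, and each vertical bar is the median of a group. The median is 0.32 for the interferon receptors and kinases (with Socs1), -0.20 for peptide loading and -0.22 for the 10 class I genes.

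Other genes of the class I fold were also examined. Of 28 listed, 18 had a row, 10 were tested, 3 were called higher and 2 lower, beside 16.9% and 18.7% of all genes tested. Fcgrt, the heavy chain of the neonatal Fc receptor and a partner of B2m, had 6.34, 5.12 and 5.82 FPKM in Carmil3-KO libraries, against 2.54, 2.11 and 2.01 FPKM in WT libraries (log2 change 1.07, adjusted p = 5.19e-05). Every Carmil3-KO library lay above every WT library, and the log2 change was larger than that of H2-T23. Hfe, another partner of B2m that acts in iron sensing, rose by a log2 change of 0.39 (adjusted p = 0.00931). Cd1d1, which presents lipids, had a log2 change of 0.35 (adjusted p = 0.0199) and lost its call without Carmil3-KO replicate 2 or 3 or WT replicate 2 or 3 (adjusted p of 0.067, 0.0512, 0.0556 and 0.0664), without a filter on low values (0.0552) and when centred on its neighbours (0.137).

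H2-Q5, a further gene of the Q region, fell with H2-Q6 and H2-Q7. H2-Q7 shared 8.74% of its 50-base stretches with H2-Q5, so some of the same reads may lie behind both values. It had 6.80, 7.10 and 6.34 FPKM in Carmil3-KO libraries, against 9.71, 9.58 and 10.5 FPKM in WT libraries (log2 change -0.50, adjusted p = 0.000566). No Carmil3-KO library reached the WT range. Procr, the class I-like receptor of protein C, had a log2 change of -0.45 (adjusted p = 0.000922). Of the class II genes 2 of 8 were tested, and of these H2-DMa was called higher (log2 change 0.42, adjusted p = 0.0226, but 0.0837 without WT replicate 1, 0.0717 without a filter on low values and 0.0578 when centred on its neighbours).

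The share of called genes in the surrounding stretch was near or under that over all genes tested (16.9% higher and 18.7% lower). From H2-K1 to H2-M3 on chromosome 17, 79 genes were tested, of which 14 were called higher and 11 lower, with a median log2 change of 0.07. Without the 8 H2 genes named here, 71 genes were left, of which 12 were called higher and 8 lower. H2-T22 and H2-T23 lie side by side and were both called higher, as H2-Q6 and H2-Q7 lie near each other and were both called lower.

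By Euclidean distance between centred log2(FPKM + 1) values over the 6 libraries, and among 7323 genes that averaged 5 FPKM or more, the genes nearest to H2-T23 were Tgfbr3 (distance 0.0902), a co-receptor of TGF-beta, Dusp10 (0.115), a phosphatase of MAP kinases, and Sox9 (0.121), a transcription factor. Tgfbr3 averaged 10.2 FPKM in Carmil3-KO and 4.99 FPKM in WT cells. The genes nearest to H2-Q7 were Cgnl1 (0.0854), a junction protein related to cingulin, Spry4 (0.0896), an inhibitor of receptor tyrosine kinase signalling, and Tnfrsf10b (0.101), the mouse receptor of TRAIL. Cgnl1 averaged 19.0 FPKM in Carmil3-KO and 30.8 FPKM in WT cells. With 6 libraries in 2 groups, such nearness mostly states that the genes differ between the groups by a like amount.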

How the data were processed

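RNA of 6 libraries of 4T1 cells, 3 Carmil3-KO and 3 WT, was sequenced, with groups taken from the labels. The authors deposited 1 table with a normalized value per gene and library, read here as FPKM from the spacing of its values, since no header names the unit. The submitters' processing notes list CASAVA, Bowtie, Bowtie2, TopHat, TopHat2 2.0.12, HTSeq 0.6.0 and the build mm10, and no source used here gives their roles, the annotation, the strand setting or the treatment of reads with several matches. Gene IDs were paired with symbols and exon lengths of GENCODE M21 (GRCm38), which named 23577 of 23644 genes. With these lengths, 91.97% to 92.27% of values of up to 500 reads came out whole (within 0.02 reads), and library totals follow from this. Exon lengths merge all transcripts of a gene, so long retained introns lower its FPKM. The deposited H2-K1 values did not give whole reads at the length used.

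The 11171 genes that reached 1 FPKM in 3 or more of the 6 libraries were tested by limma (version 3.58.1, R 4.3.3, trend and robust empirical Bayes) on log2(FPKM + 1), with Benjamini-Hochberg adjustment and a threshold of 0.05. The fit was also run on simulated data with the same spread setting for every gene and library. That run did not cover an outlying library such as Carmil3-KO replicate 3. Alternatives changed the pseudocount (0.1, 5), the filter (none, 5 FPKM), the scaling (median of ratios, quantile), the variance model, the null hypothesis (1.5-fold), the replicate block, the libraries (each left out in turn), centring on 20 tested genes on each side, and the unit (limma-voom on recovered reads). The 10 genes, the gene lists, the motifs and the tests were chosen with earlier results of these data known. Named are all 10 genes, genes they depend on (with an exception that is not reported here), up to 4 called genes per list and direction with the largest change, and the 3 genes of nearest pattern; a few further list members and markers were named after their values were seen. Same-numbered libraries were not paired, since the correlations of their deviations were -0.061 to 0.149. Sequences were compared with Biopython 1.88 in Python 3.11.15, promoters come from RefSeq, and figures were drawn with matplotlib 3.10.9.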

Additional observations from a re-analysis of the deposited data

How the results depend on the processing

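Of 168 recomputed log2 changes of the 10 genes, 167 kept their direction. The exception was Nlrc5, at 0.11 once centred on its neighbours; the cause was not tested. A test against a 1.5-fold change left 118 genes higher and 193 lower of all tested, 1 and 0 of the 10 class I genes (1.5-fold limma; 2 and 4 by plain limma), and 1 and 0 of the 4 pathway lists. Leaving out 1 library each gave 1182 to 2041 genes higher and 1358 to 2218 lower over all genes, 1 to 3 higher and 3 to 5 lower of the 10, and 4 to 10 higher and 4 to 8 lower of the pathway lists. The lowest counts over all genes, 1182 and 1358, and the 1 class I and 4 pathway genes called higher came without WT replicate 1, and the 8 pathway genes called lower without Carmil3-KO replicate 3. B2m also lost its call without a filter on low values (adjusted p = 0.0671). H2-K1 passed when centred on its neighbours (0.0491) or fitted by limma-voom on recovered reads (0.0488). With the replicate block 1900 genes were higher and 2127 lower, as were 2 and 4 of the 10 and 9 and 6 of the pathway lists; 4 of 6 libraries correlated best with their own number, a hint from the data and not the design. The motif forms run first were found in fewer class I promoters, with TGACGC in 4 of 9 (7.40% of all promoters), TTTCNNTTC in 6 (7.52%) and GGGNNTCCC in 4 (5.66%). Depth limits H2-T23, H2-M3 and H2-K1 most, since fewer reads lie behind their values.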
